A study of Mus musculus with 14 samples.

Results

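The antiviral effectors described here are 10 interferon-stimulated genes of the mouse: Ifit1, Ifit2, Ifit3, Isg15, Usp18, Rsad2, Isg20, Ifi35, Ifitm3 and Bst2. Members were the array probes whose gene symbol is one of these 10 names. There were 11 such probes for 9 of the genes, out of 33600 probes on the array; Isg20 had 3 probes, and no probe was named Bst2, so that gene was not analysed here. The study measured RNA in cortical astrocytes cultured from the brains of newborn mice, taken after 1 passage in serum-containing medium. The groups are 4 samples of wild-type astrocytes transfected with a small interfering RNA (siRNA) construct against connexin43 (Cx43, the gap junction protein encoded by Gja1), 4 samples of Cx43 null astrocytes and 6 samples of untransfected wild-type astrocytes. The siRNA cultures received 20 ug of construct and were compared after 36 h per the design text, whereas the labels' protocol gives 48 h for the protein check. The labels name no allele for the null cells and list no sample treated with a control siRNA or with transfection reagent alone, so the transfection itself and the loss of Cx43 cannot be told apart in the siRNA group.

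Values were used from all 4 siRNA samples, all 4 null samples and wild-type samples 3, 4 and 6. The columns of wild-type samples 1, 2 and 5 did not follow the other samples: over probes their correlation with the average of the remaining samples was 0.370, 0.380 and -0.0201, against 0.894 to 0.948 for the 11 samples used. Between 53.1% and 79.8% of the probes had a value in a used sample. Each value is a centred log value of 1 sample, with 0 at the middle of that sample's probes, and is treated here as log2 with higher values meaning more RNA. No source used here states the log base or the direction. A change of 1 is then a doubling, and the levels of different probes cannot be compared. Changes come from a linear model (limma) over all 18507 tested probes with dye and replicate number (1 and 2 against 3 and above) as covariates. A probe was called changed at a Benjamini-Hochberg adjusted p under 0.05. All 11 member probes were tested. The labels do not tie samples to separate cultures, so the spread behind each p-value may be technical. Consecutive samples of a group carried opposite dyes, and whether they shared an array is not given. Adjusted p-values from a fit with such array pairs as a random block are therefore printed beside most of the calls.

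Type I interferons act through the receptor chains Ifnar1 and Ifnar2. Receptor signalling activates a complex that holds Stat2 and Irf9 and binds the interferon-stimulated response element, a DNA motif in front of its target genes. The targets include the genes studied here. Several of their proteins block viruses at entry, genome replication, translation or budding. Astrocytes are among the brain cells known to answer interferon in this way. The promoters below show how the motif is placed in members that rose after siRNA (Ifit1, Isg15, Rsad2 and Ifi35) and in one that was not called (Ifitm3). They are the 150 bases before the annotated start in RefSeq, build GRCm38.p6, written 5′ to 3′ on the gene's own strand, and capitals mark matches to the motif core, a pair of GAAA with any 2 bases between them, on either strand.
Ifit1 (chr19:34640739-34640888, plus strand): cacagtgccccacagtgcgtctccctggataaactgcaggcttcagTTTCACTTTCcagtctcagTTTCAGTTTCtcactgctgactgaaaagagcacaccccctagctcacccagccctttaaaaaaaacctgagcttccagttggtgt
Isg15 (chr4:156200819-156200968, minus strand): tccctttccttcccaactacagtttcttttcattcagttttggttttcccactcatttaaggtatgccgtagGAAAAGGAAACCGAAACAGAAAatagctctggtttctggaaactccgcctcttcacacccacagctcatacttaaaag
Rsad2 (chr12:26456453-26456602, minus strand): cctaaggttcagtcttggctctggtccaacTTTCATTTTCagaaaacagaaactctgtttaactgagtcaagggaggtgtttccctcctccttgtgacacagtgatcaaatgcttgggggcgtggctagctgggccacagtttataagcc
Ifi35 (chr11:101448262-101448411, plus strand): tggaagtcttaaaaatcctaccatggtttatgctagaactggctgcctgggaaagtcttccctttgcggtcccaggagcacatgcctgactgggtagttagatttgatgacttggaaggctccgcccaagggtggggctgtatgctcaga
Ifitm3 (chr7:141010745-141010894, minus strand): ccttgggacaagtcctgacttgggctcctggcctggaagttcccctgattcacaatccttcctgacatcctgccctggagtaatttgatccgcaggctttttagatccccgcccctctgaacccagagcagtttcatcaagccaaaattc

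The core was found in the 250 bases before the start of 978 of 32851 RefSeq promoters (2.98%). Among the members it was present in Ifit1, with matches beginning 104 and 85 bases before the start, and in Ifit3, at 156 and 122 bases. Isg15 held 3 overlapping matches that begin 78, 72 and 66 bases before its start, Rsad2 held 1 at 120 bases, and Bst2 held a pair that overlap at 130 and 124 bases. No match to these letters lay in this window of Ifit2, Isg20, Ifi35 or Ifitm3. A second motif, TTCNNNGAA, the core of the gamma-activated site, reads the same on both strands and was present in 2306 promoters (7.02%). It was found 241 bases before the first annotated start of Ifit2, 73 bases before that of Isg20 and 136 bases before the start of Bst2, where it overlaps the response element core. Promoter entries were matched by symbol for 9 of the 10 genes, all but Usp18. The probes carry no genome coordinates here, and the array's build is not named.

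**Figure D1:**
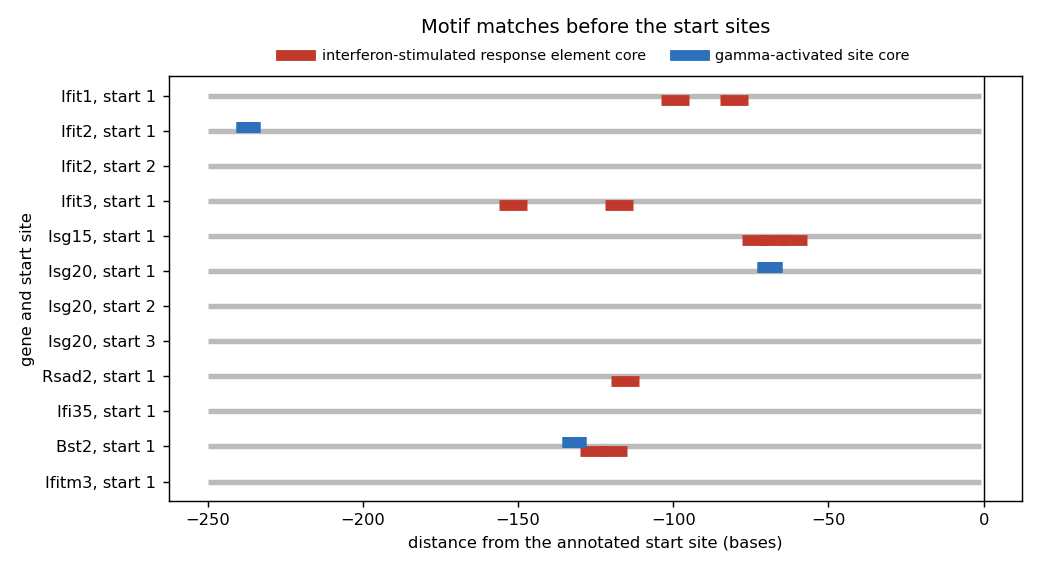
Motif matches in the 250 bases before each annotated start of 9 genes, drawn by distance from the start in bases. Red bars mark the response element core (GAAA, any 2 bases, GAAA) and blue bars TTCNNNGAA, on either strand; the Isg15 matches lie within 78 bases of the start, and Ifi35 and Ifitm3 have none.

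Gja1, the target of both manipulations, read 1.93, 2.14, 5.47 and 5.70 in siRNA samples 1 to 4, -1.17, -1.06, 2.82 and 3.03 in null samples 1 to 4, and 6.08, 7.53 and 4.82 in wild-type samples 3, 4 and 6. Replicates 1 and 2 lay below replicates 3 and 4 within both the siRNA and the null group. In the fit Gja1 fell by 3.31 ± 0.58 (SE, log2) in null against wild type (limma adjusted p = 0.0473; 0.28 with array pairs), a call that held in only 2 of the 11 fits that each left out 1 sample. The siRNA change of -0.41 ± 0.58 was not called (limma adjusted p = 0.734), and its 95% interval ended at -1.68, just short of the 3.24-fold lower mRNA (-1.70 in log2) that the design text states. Without the replicate number class as a covariate the siRNA change was -2.31 (limma adjusted p = 0.587), beyond that value and also not called. The labels do not say whether the probe lies in the deleted stretch, so it may check nothing in the null cells.

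Most of the antiviral effectors were higher in the siRNA samples. Of the 11 member probes 7, from 7 genes, rose in siRNA against wild type, by 1.80 to 4.53 in log2, and none fell, while 7.11% of all 18507 tested probes were called in either direction (5.07% higher and 2.04% lower). The median change was 3.18 over the member probes and 0.13 over all probes. For 7 member probes every siRNA value lay above every wild-type value, as it did for 4.5% of all probes. In the fit with array pairs 4 of the 11 remained called (Isg15, Rsad2, Isg20 and Ifit2), against 1.15% of all probes.

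**Figure D2:**
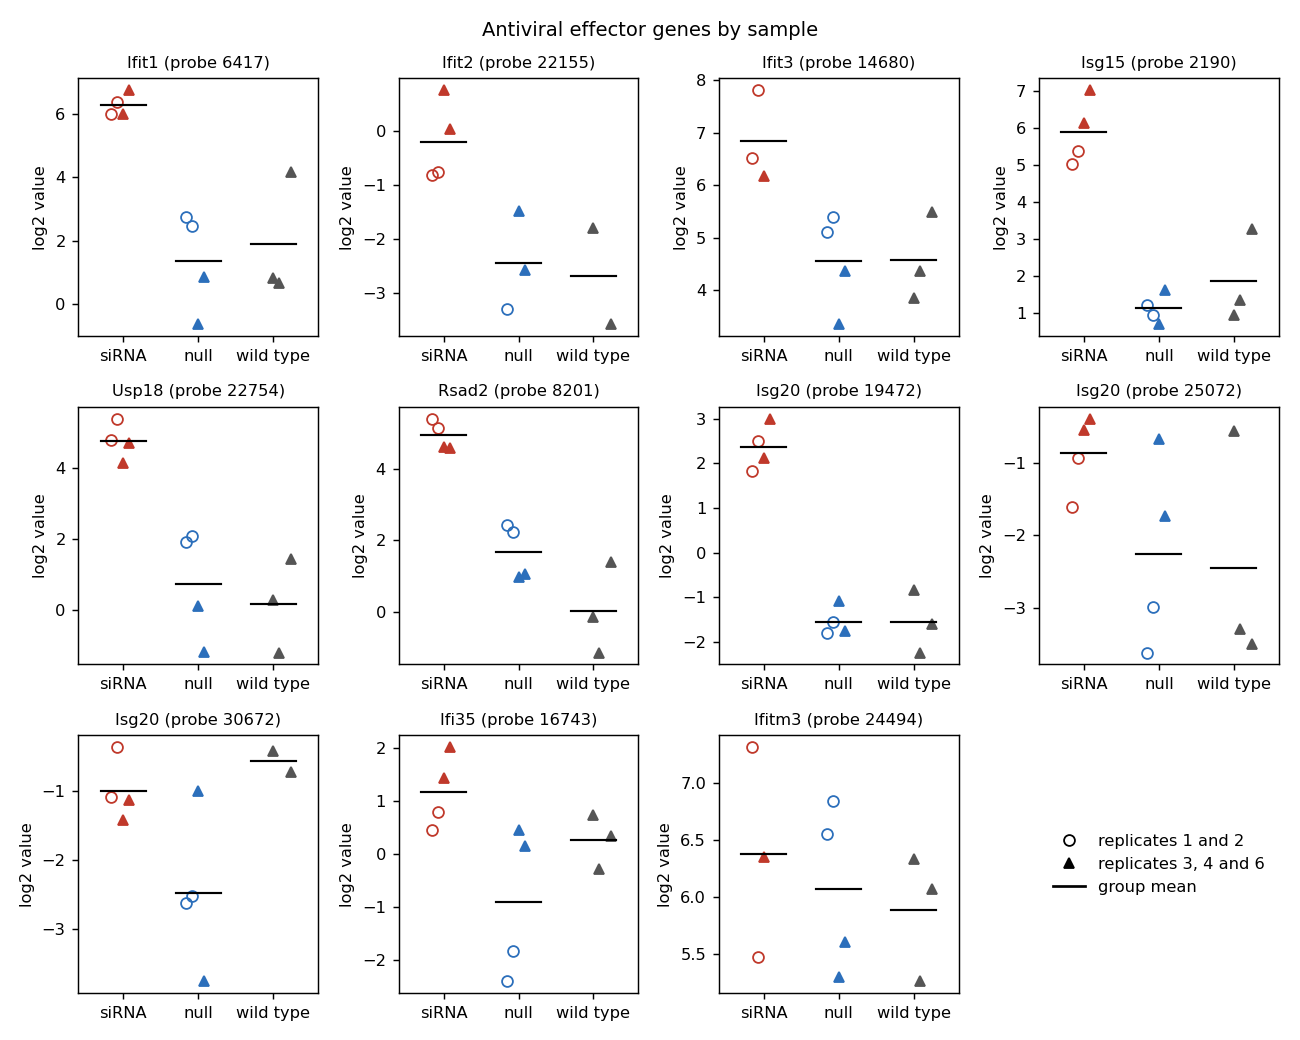
The deposited log2 values of the 11 member probes in siRNA, null and wild-type samples, 1 point per sample (circles for replicates 1 and 2, triangles for replicates 3, 4 and 6) with the group mean as a line; the vertical scale differs between panels. For Ifit1, Ifit2, Ifit3, Isg15, Usp18, Rsad2 and Isg20 (probe 19472) the siRNA values lie above all null and wild-type values.

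Among the IFIT proteins, Ifit1 binds viral RNA that lacks the host's cap methylation and keeps it from being translated. Its values were 5.99, 6.38, 6.0 and 6.74 in siRNA samples 1 to 4, 2.75, 2.48, -0.62 and 0.85 in null samples 1 to 4, and 0.83, 0.67 and 4.17 in wild-type samples 3, 4 and 6. The siRNA samples stood together above both other groups, and wild-type sample 6 was the highest of the remaining samples. Ifit1 rose by 3.95 ± 0.88 (SE, log2) in siRNA against wild type (limma adjusted p = 0.0226; 0.0964 with array pairs), and the call was lost without siRNA sample 3 or 4 or wild-type sample 3 or 4 (adjusted p 0.0786 to 0.147). Against null it rose by 4.91 ± 0.73 (adjusted p = 0.00426; 0.0204 with array pairs).

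Ifit2, which shares the repeat structure of Ifit1 and restricts neurotropic viruses in mice, was measured in fewer samples. It read -0.81, -0.75, 0.76 and 0.04 in the siRNA samples, -3.29, -1.47 and -2.56 in null samples 1, 3 and 4, and -1.79 and -3.57 in wild-type samples 3 and 6; null sample 2 and wild-type sample 4 had no value and were dropped from its fit. Every siRNA value was above every other value. The change was 3.18 ± 0.50 (limma adjusted p = 0.00779; 0.0383 with array pairs) against wild type and 2.62 ± 0.41 (adjusted p = 0.00855; 0.0572 with array pairs) against null. The rise against wild type was called in each of the 9 fits without 1 sample that measured it enough.

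Ifit3, whose human counterpart stabilises IFIT1 on RNA, read 6.53, 7.82 and 6.18 in siRNA samples 1 to 3, 5.10, 5.39, 3.35 and 4.37 in the null samples and 3.86, 4.36 and 5.50 in the wild-type samples. The siRNA values again did not overlap with the others, but the change against wild type of 1.85 ± 0.53 did not pass (limma adjusted p = 0.0613). It passed at 2.10 when the replicate number was used as a block (adjusted p = 0.0326) and at 2.12 without wild-type sample 6 (adjusted p = 0.0302). Sample 6, the highest wild-type value here, is the only sample of its number, so the block also takes it out of the comparison. Of the 20 alternative fits 3 called this change. Against null Ifit3 rose by 2.25 ± 0.41 (adjusted p = 0.0131; 0.071 with array pairs), a call lost without siRNA sample 3 (adjusted p = 0.104). In RefSeq order Ifit2, Ifit3, Ifit1bl1, Ifit3b, Ifit1bl2 and Ifit1 lie together on chromosome 19. Ifit3b is a near-identical copy of Ifit3, so signal from both may be mixed at the Ifit3 probe.

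Isg15, a ubiquitin-like protein that is attached to viral and host proteins, showed the largest change of the member probes in siRNA against wild type, while Ifit1 did so against null. It read 5.05, 5.38, 6.15 and 7.04 in the siRNA samples, 1.23, 0.94, 0.69 and 1.63 in the null samples and 0.94, 1.35 and 3.27 in the wild-type samples. All 4 siRNA samples were above the highest other sample, wild-type sample 6. Isg15 rose by 4.53 ± 0.57 in siRNA against wild type (23.1-fold on the assumed scale, limma adjusted p = 0.0017; 0.0123 with array pairs) and by 4.78 ± 0.48 against null (adjusted p = 0.000435; 0.005 with array pairs). Both calls held in each of the alternative fits, 22 against wild type and 23 against null.

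Usp18 removes Isg15 from its targets and also damps signalling at the interferon receptor. Its values were 4.80, 5.39, 4.15 and 4.70 in the siRNA samples, 1.91, 2.10, 0.14 and -1.18 in the null samples and 0.29, -1.19 and 1.45 in the wild-type samples. The siRNA group again lay wholly above the others. The rise was 3.77 ± 0.71 against wild type (limma adjusted p = 0.0107; 0.0714 with array pairs) and 4.02 ± 0.59 against null (adjusted p = 0.00393; 0.0293 with array pairs). Without siRNA sample 3 or 4 the rise against wild type was not called (adjusted p = 0.051 and 0.091).

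Rsad2 encodes viperin, which makes a chain-terminating nucleotide that stops viral polymerases. It read 5.41, 5.15, 4.62 and 4.59 in the siRNA samples, 2.42, 2.25, 0.97 and 1.06 in the null samples and -0.13, -1.15 and 1.38 in the wild-type samples. The siRNA samples were highest, while null and wild type overlapped. Rsad2 rose by 4.41 ± 0.56 against wild type (limma adjusted p = 0.00183; 0.0142 with array pairs) and by 3.27 ± 0.47 against null (adjusted p = 0.00365; 0.0243 with array pairs). The rise against wild type was called in all 22 alternative fits.

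Isg20, an exonuclease that degrades single-stranded RNA, gave different results at its 3 probes. Probe 19472 read 1.83, 2.51, 2.13 and 3.01 in the siRNA samples, -1.81, -1.56, -1.10 and -1.77 in the null samples and -0.83, -2.25 and -1.60 in the wild-type samples. Null and wild type had the same mean of -1.56 there, and the siRNA samples lay far above both. The rise was 4.08 ± 0.47 against wild type (limma adjusted p = 0.00107; 0.0162 with array pairs) and 3.92 ± 0.39 against null (adjusted p = 0.000435; 0.00851 with array pairs). Probe 25072 ran from -1.61 to -0.39 in siRNA, from -3.61 to -0.68 in null and from -3.50 to -0.56 in wild type, groups that overlap, with a change of 2.19 ± 0.69 against wild type (adjusted p = 0.0787). Probe 30672 ran from -1.42 to -0.36 in siRNA, from -3.75 to -0.99 in null and from -0.73 to -0.42 in wild-type samples 3 and 6, with a change of -0.52 ± 0.68 against wild type (adjusted p = 0.715). No source used here says which part of the transcript each probe reads.

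Ifi35, a leucine zipper protein that forms complexes with Nmi, changed least among the called members. It read 0.45, 0.79, 1.44 and 2.02 in the siRNA samples, -2.40, -1.82, 0.45 and 0.16 in the null samples and 0.75, -0.27 and 0.33 in the wild-type samples. The siRNA and wild-type values overlapped, since siRNA sample 1 lay below wild-type sample 3. The change of 1.80 ± 0.46 against wild type (limma adjusted p = 0.0397) did not pass with array pairs (0.179), and of the 11 fits without 1 sample only the one without wild-type sample 3 called it. Against null Ifi35 rose by 2.08 ± 0.39 (adjusted p = 0.0121; 0.1 with array pairs).

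Ifitm3, a membrane protein that traps entering viruses in endosomes, was not called in any comparison. It read 7.32, 5.47 and 6.35 in siRNA samples 1 to 3, 6.55, 6.85, 5.29 and 5.61 in the null samples and 6.33, 5.26 and 6.07 in the wild-type samples. The 3 groups covered the same range. The change against wild type was -0.29 ± 0.62 in siRNA (95% interval -1.64 to 1.07, limma adjusted p = 0.836) and -0.35 ± 0.53 in null (-1.52 to 0.82, adjusted p = 0.815). Its neighbours on chromosome 7 are close in sequence, so their signals may be mixed. Of these, Ifitm1 fell by 2.01 ± 0.55 in siRNA against wild type (adjusted p = 0.0484, and 0.169 with array pairs). Against null Ifitm1 fell by 2.89 ± 0.46 (adjusted p = 0.00581, and 0.0402 with array pairs). Ifitm2 had changes of -0.92 ± 0.41 against wild type (adjusted p = 0.202) and -0.82 ± 0.34 against null (adjusted p = 0.163).

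**Figure D3:**
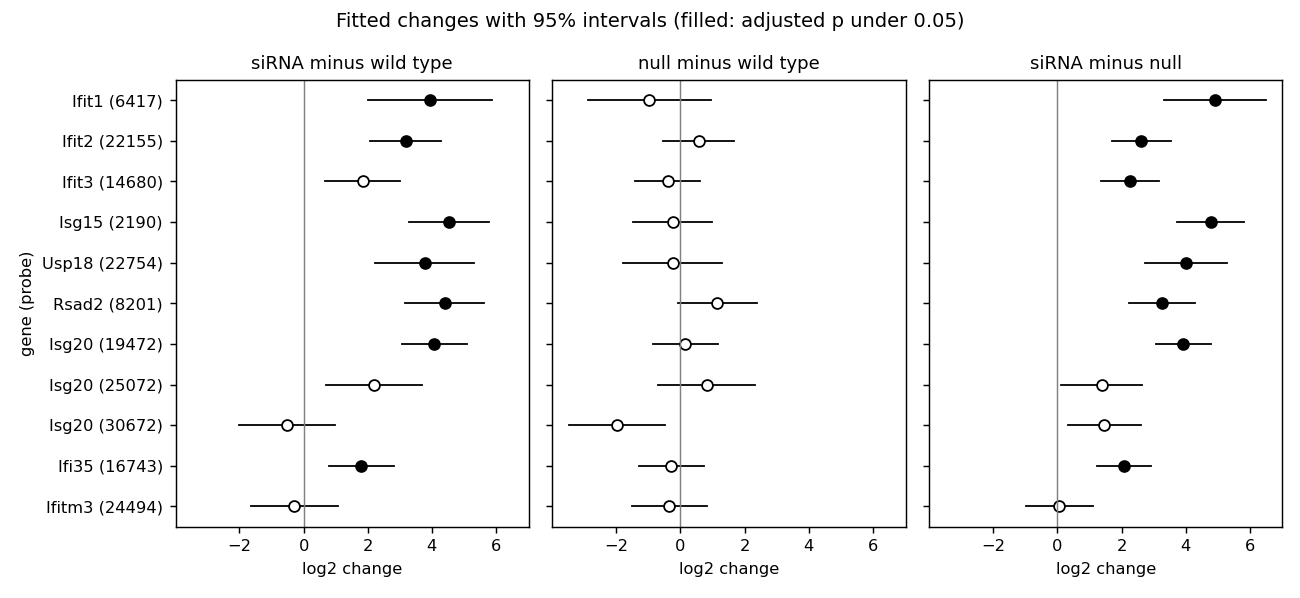
Fitted log2 changes of the 11 member probes with 95% intervals for siRNA minus wild type, null minus wild type and siRNA minus null; filled points passed an adjusted p of 0.05. Filled points number 7, 0 and 8, and Ifitm3 lies near 0 in all 3 panels.

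Loss of the Cx43 gene gave no call among the members. In null against wild type 0 of 11 member probes passed limma's adjusted threshold, beside 0.362% of all 18507 tested probes (0.276% higher and 0.0865% lower). In the fit with array pairs these were 0 of 11 and 0.0162%. At an unadjusted p under 0.05 the counts were 1 of 11 member probes and 2980 of all probes. The median change was -0.25 over the member probes and 0.23 over all probes. The largest positive change was that of Rsad2, 1.14 ± 0.56 (limma adjusted p = 0.348), and the largest negative one that of Isg20 probe 30672, -1.98 ± 0.68 (adjusted p = 0.183), where all 4 null values lay below the 2 wild-type values; 4.41% of all probes were separated in that direction. The intervals leave room for sizeable changes, for example -2.89 to 0.95 for Ifit1 and -1.49 to 0.99 for Isg15. Both comparisons with wild type share the same 3 wild-type samples.

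Set directly against each other, siRNA and null samples differed for most members. In siRNA against null 8 of 11 member probes, from 8 genes, were higher, where 6.04% of all tested probes were called in either direction (2.36% higher and 3.68% lower). The median change was 2.62 over the member probes and -0.09 over all probes, and for 7 probes all siRNA values lay above all null values, as for 3.45% of all probes. With array pairs 5 of the 11 remained called, against 0.708% of all probes. These calls come from the fit over all 11 samples, in which the wild-type samples share the estimate of spread and the covariates. Both groups hold samples of both replicate number classes, so plain differences of means can be read within each class without the wild-type samples. In replicates 1 and 2 the siRNA minus null difference was 3.57 for Ifit1, 4.13 for Isg15, 3.09 for Usp18, 2.95 for Rsad2 and 3.85 for Isg20 probe 19472. In replicates 3 and 4 it was 6.26, 5.43, 4.95, 3.59 and 4.00 for the same probes in the same order. The direction was therefore the same in both classes for each of these, and also for Ifit2 (2.51 and 2.42), Ifit3 (1.93 and 2.32) and Ifi35 (2.73 and 1.42), whereas Ifitm3 had -0.30 and 0.90. The size differed between the classes for Ifit1, by 2.68 ± 0.57 (limma adjusted p = 0.0191), in a test that called 21.2% of 14728 probes. For the other 7 member probes in that test the difference was not called (adjusted p 0.0686 to 0.878).

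Against wild type only replicates 3 and above can be compared as deposited, and there the siRNA minus wild-type difference was 4.74 for Isg15, 4.57 for Rsad2, 4.48 for Ifit1, 4.24 for Usp18, 4.12 for Isg20 probe 19472, 3.08 for Ifit2, 1.98 for Isg20 probe 25072, 1.61 for Ifit3, 1.46 for Ifi35 and 0.47 for Ifitm3. It was negative for Isg20 probe 30672, at -0.70. The wild-type samples were not alike among themselves. Wild-type sample 6 was the highest of the 3 for 5 of the 9 member probes measured in all 3 (Ifit1, Isg15, Rsad2, Usp18 and Ifit3), by 1.39 to 3.42 over the mean of samples 3 and 4, and it was the highest for 26.1% of all such probes. Without it the siRNA change was 4.95 for Ifit1 and 5.13 for Isg15.

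The 7 member probes measured in all 11 samples followed a common profile. Centred on each probe's own mean, their average was 1.83, 2.23, 2.13 and 2.66 in siRNA samples 1 to 4, -1.22, -1.10, -1.32 and -1.44 in the null samples and -1.11, -2.17 and -0.51 in the wild-type samples. The siRNA samples form one cluster and the other samples another. The correlation of each probe with the mean of the other 6 was 0.97 for Isg20 probe 19472, 0.94 for Isg15, 0.90 for Usp18, 0.89 for Ifit1 and 0.88 for Rsad2, and lower for Ifi35 (0.56) and Isg20 probe 25072 (0.49). Outside the members, the 5 named genes most like this profile over the 11 samples, out of 14243 probes compared, were Arrdc4 (Pearson r = 0.983), Tgtp1 (0.981), Cd274 (0.976), Ttc39b (0.971) and H2-T3 (0.971). These correlations describe points that come from the same samples and fall into the same clusters. The 5 genes were picked for following a profile that is high in the siRNA samples. Their siRNA changes and p-values follow from that choice and are a description only. The siRNA change against wild type was 5.43 ± 0.67 for Tgtp1, an interferon-inducible GTPase, 3.20 ± 0.55 for H2-T3, a class I histocompatibility gene, 2.95 ± 0.37 for Cd274, which encodes the checkpoint ligand PD-L1, 2.44 ± 0.44 for Ttc39b and 2.36 ± 0.41 for Arrdc4 (limma adjusted p 0.00147 to 0.00946).

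Of the 5 tested genes listed for the attachment of Isg15, 3 rose in siRNA against wild type (2 with array pairs), with a median change of 2.47, and 4 rose against null (3 with array pairs). The list counts Herc3 as a relative of Herc6, and its part in this attachment is not established here. Uba7, the activating enzyme for Isg15, read 1.52, 2.18, 3.91 and 4.05 in the siRNA samples, 0.20, 0.19, 0.60 and 1.27 in the null samples and 0.66, 1.30 and 1.77 in the wild-type samples. It rose by 2.47 ± 0.44 against wild type (limma adjusted p = 0.0086; 0.0516 with array pairs), although siRNA sample 1 lay within the wild-type range. Ube2l6, the conjugating enzyme, read 3.58, 3.82, 4.28 and 5.04 in the siRNA samples, 1.13, 1.30, 1.33 and 1.63 in the null samples and 1.87, 0.51 and 0.87 in the wild-type samples. It rose by 3.40 ± 0.45 (adjusted p = 0.0022; 0.0238 with array pairs) with no overlap between siRNA and the other groups. Herc6, the main ligase for Isg15 in the mouse, has 6 tested probes, of which 4 rose. Their changes were 2.96 ± 0.43, 3.59 ± 0.56, 3.91 ± 0.36 and 5.05 ± 0.52 (adjusted p 0.00032 to 0.00715, and 0.00372 to 0.037 with array pairs). At probe 10826, which rose by 3.59, siRNA samples 1 and 2 (-1.11 and -0.62) lay within the wild-type range of -1.65 to 0.34. At probe 27626, which rose by 3.91, siRNA sample 1 (0.90) lay just below wild-type sample 3 (0.91). All siRNA values were above all wild-type values at the remaining risen probes. The other probes of Herc6 had changes of 0.08 and 0.17. The remaining genes of the list, Trim25 and Herc3, had changes of 1.34 (adjusted p = 0.128) and 0.67 (adjusted p = 0.54).

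Of 6 transcription factors tested 1 rose and 2 fell in siRNA against wild type, and the median change was 1.27. Irf7, which carries the interferon response forward, read 3.79, 4.45, 5.08 and 5.34 in the siRNA samples, 0.91, 1.26, -2.05 and -2.21 in the null samples and -2.03, -1.80 and -0.19 in the wild-type samples. The siRNA samples were all above the others. Its rise was 5.56 ± 0.88 (limma adjusted p = 0.00494; 0.0167 with array pairs). Stat2 had a change of 1.75 ± 0.73 (adjusted p = 0.174), and the 2 probes of Irf9 had changes of 2.03 ± 0.60 and 0.89 ± 0.58 (adjusted p = 0.0644 and 0.394). Irf8 and Irf5, which are strongly expressed in myeloid cells, fell by 2.72 ± 0.61 and 1.70 ± 0.43 (adjusted p = 0.0231 and 0.0371; 0.103 and 0.159 with array pairs). Irf3 had too few values to be tested.

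Sensors of viral nucleic acid rose in part: 4 of 14 tested sensors and adaptors rose (2 with array pairs), none fell, and the median change was 1.15. These were Tlr3, Zbp1, Ddx58 and Dhx58. The endosomal RNA receptor Tlr3 rose by 3.87 ± 0.44 (limma adjusted p = 0.00105, and 0.0142 with array pairs). Ddx58, the gene of the cytosolic RNA sensor RIG-I, rose by 2.17 ± 0.47 (adjusted p = 0.0199, and 0.134 with array pairs). All 3 probes of Zbp1 rose, by 3.66 to 4.72 (adjusted p 0.0304 to 0.045 with array pairs). Both probes of Dhx58, which tunes RIG-I, rose by 3.11 and 3.44 (adjusted p = 0.113 and 0.0251 with array pairs). Of 26 other effectors tested 15 rose and 1 fell (8 and 0 with array pairs), and the median change was 3.06. The smallest adjusted p belonged to Oas1g, an oligoadenylate synthetase gene (4.73 ± 0.47, adjusted p = 0.000441, and 0.00391 with array pairs). Next came Tgtp1 (adjusted p = 0.00783 with array pairs) and Oasl1 (4.81 ± 0.50, adjusted p = 0.00183, and 0.0104 with array pairs). The gene that fell was Ifitm1. Oas1g was also the 1 gene of all these lists that rose in null against wild type (3.07 ± 0.47, adjusted p = 0.0348), and this call was lost with array pairs (0.252).

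Of 7 feedback inhibitors 0 were called by limma in siRNA against wild type, and 3 had an unadjusted p under 0.05. Of all 18507 tested probes 4298 had such a p in this comparison. Socs1, an inhibitor of the receptor's kinases, had a change of 2.78 ± 0.74 (adjusted p = 0.0519), and against null it rose by 4.27 ± 0.80 (adjusted p = 0.0178; 0.144 with array pairs).

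Of 21 listed interferon ligands, receptors and receptor kinases 17 had a probe and 8 could be tested. Ifna4 was the only ligand among the 8, so their counts and median describe mostly receptors and kinases. In siRNA against wild type 0 of the 8 were called, and the median change was -0.14. An unadjusted limma p under 0.05 was found for 2 of the 8, beside 4298 of all 18507 tested probes. Both were receptor chains that were lower in siRNA. Ifngr1 had a change of -1.13 ± 0.36 (limma adjusted p = 0.0822) and Il10rb one of -1.06 ± 0.38 (adjusted p = 0.116). The receptor chains Ifnar1 and Ifnar2 had changes of -0.11 ± 0.36 and -0.16 ± 0.51 (limma adjusted p = 0.895 and 0.894). Ifnb1, which encodes interferon beta, could not be tested because no wild-type sample had a value. It read 0.89, 0.88, 0.50 and 1.11 in the siRNA samples and -3.29 and -2.92 in null samples 3 and 4, the other null samples having none. All siRNA samples were thus above both null samples that measured it. Ifna4, an interferon alpha gene with near-identical relatives, read -1.28, -1.02, -1.29 and -1.01 in the siRNA samples, -3.03, -2.79, -3.15 and -3.24 in the null samples and -1.28, -2.25 and -2.46 in the wild-type samples. Its change was 0.75 ± 0.40 against wild type (adjusted p = 0.289), and against null it rose by 1.90 ± 0.33 (adjusted p = 0.00899; 0.0926 with array pairs).

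**Figure D4:**
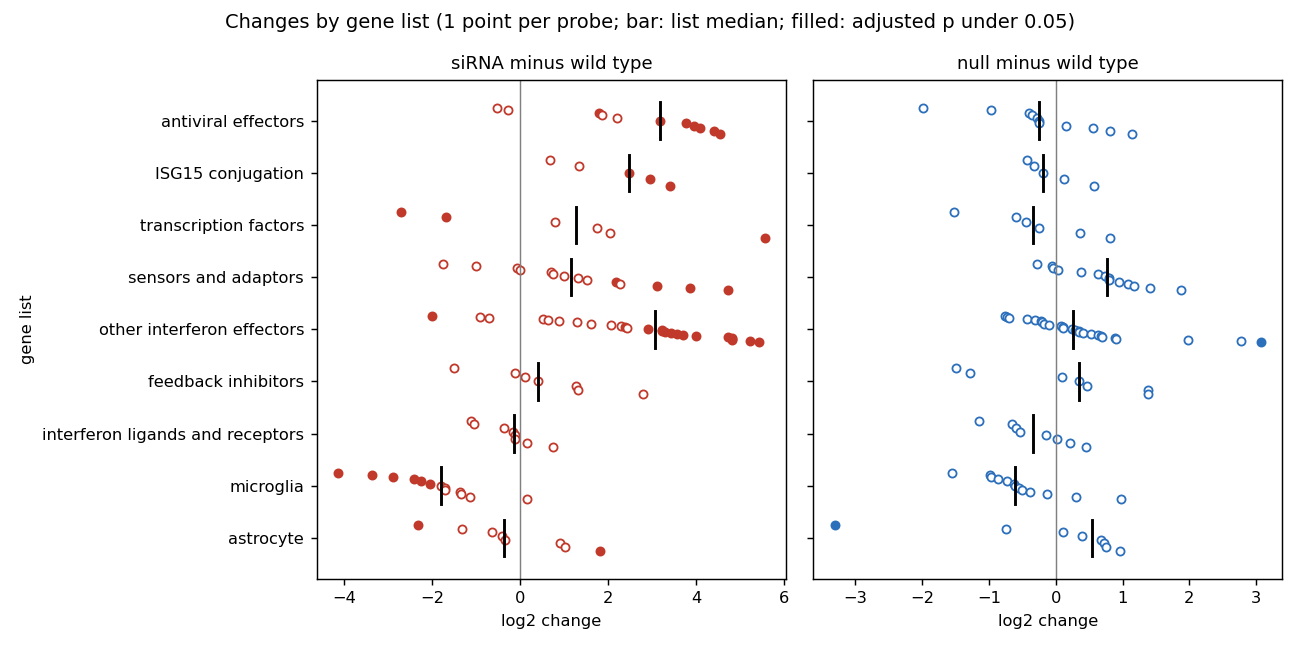
Log2 changes of the member probes and of 8 gene lists for siRNA minus wild type and null minus wild type, 1 point per tested member probe or gene, with the list median as a bar and called changes filled; the horizontal scales of the panels differ. In siRNA minus wild type the medians are 3.18 for the antiviral effectors and 3.06 for the other effectors, and -1.81 for microglia markers.

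Markers of the cells in these cultures were read beside the members. Of 12 astrocyte markers 8 were tested, Gja1 among them. Gfap had no value in any of the 11 samples, and Slc1a3 had none in wild type. S100b had 2 values in siRNA, 2 in null and 3 in wild type. Its measured samples did not allow every term of the model to be estimated, so it was left out. Without Gja1, the target of both manipulations, the mean of the other 7 ran from 2.10 to 3.16 in siRNA samples, from 3.08 to 4.52 in null samples and from 3.15 to 3.70 in wild-type samples. Each mean skips genes without a value in that sample. All 7 were measured in every wild-type sample, but only 6 in every siRNA sample and 6 in every null sample. The ends of these ranges can therefore reflect which gene was missing. In siRNA against wild type Aldh1l1 rose by 1.82 ± 0.46 and Aldoc fell by 2.34 ± 0.57 (limma adjusted p = 0.0378 and 0.032; 0.193 and 0.146 with array pairs). Microglia, the resident macrophages that accompany cultured astrocytes, were covered by 13 tested markers, of which 6 fell in siRNA against wild type (2 with array pairs) and none rose, with a median change of -1.81. Their mean ran from 1.95 to 2.64 in siRNA samples, from 2.52 to 4.95 in null samples and from 3.34 to 4.08 in wild-type samples. Only 12 of the 13 were measured in every null sample, so the null means do not all cover the same genes. Laptm5 fell by 3.38 ± 0.36 (adjusted p = 0.000653; 0.00785 with array pairs). The fall of Ly86 was 4.14 ± 0.83 (adjusted p = 0.014; 0.0518 with array pairs). In siRNA against null 5 of the 13 fell (1 with array pairs), and in null against wild type 0 were called by limma, where 2 had an unadjusted p under 0.05. In bulk samples fewer cells of a type and less RNA per cell cannot be told apart. The lower microglia markers stood beside the higher antiviral effectors in the siRNA samples, and their part in the result was not tested. Of the other marker lists 1 gene was called in siRNA against wild type, the neuronal tubulin gene Tubb3, which fell by 1.34 ± 0.35 (adjusted p = 0.0391; 0.192 with array pairs).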

How the data were processed

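RNA of 14 samples was labelled with Cy3 or Cy5 and hybridised to spotted mouse oligonucleotides. The deposited table gives 1 value of both signs per probe and sample, treated here as log2 since the log base is not stated. The median is within 0.00255 of 0 in each sample and print block. No source used here states the authors' background correction or normalization. For wild-type replicate 5 the deposited column holds a score of unknown scale, with an SD of 0.476, and was used only in the fit of all 14 samples. Of 33600 probes 18179 have 1 gene symbol, 87 several and 15334 none here. A missing value carries no reason, signal over background is not known, and precision is limited by the number of arrays.

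Samples were grouped by title. Contrasts were fitted with limma 3.58.1 (lmFit, eBayes) in R 4.3.3 over 18507 probes. These had at least 2 values in each group, in samples that allowed every term of the model to be estimated. Without the replicate number class as a term, 20412 probes were tested. Tests were two-sided, adjusted by Benjamini-Hochberg over all tested probes, and called under 0.05. The code was tested on simulated data. A listed gene with several probes was counted by the probe with the highest mean. The members, the 11 samples, the covariates and the gene lists were chosen with earlier results of these data known. Named beyond the members were Gja1, 10 genes of the interferon pathway, up to 3 more per pathway list by smallest p, the 5 probes most like the members, and up to 2 markers per list. Alternatives were array pairs as a random block, other covariates, samples, scalings and filters, array weights, and leaving out each sample. Wild-type replicates 1 and 2 were also realigned by moving each of 1344 block columns to the grid row it matched (1179 placed, 797 of them 1 row away).

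Same-numbered samples of different groups deviated together in all 8 pairs (r = 0.121 to 0.647). Differently numbered siRNA and null samples of the same class did so too (r = 0.598, 0.589, 0.483 and 0.399). Wild-type samples 3 and 4 did not do so with differently numbered samples of that class (r = -0.196 to -0.051). In samples 1 to 4 each number is 1 combination of class and dye, so pairing by number cannot be told apart from these. The main fit used no pairing by number, and 1 alternative used the number as a block. Consecutive samples of 1 group correlated at -0.189 to 0.927 over 5 pairs.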

Additional observations from a re-analysis of the deposited data

Results flagged for a closer look

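The siRNA minus null difference of Ifit1 was not the same in the 2 replicate number classes: it was 3.57 in replicates 1 and 2 and 6.26 in replicates 3 and 4. The difference between these differences was 2.68 ± 0.57 (SE, log2; limma adjusted p = 0.0191), in a test in which 21.2% of 14728 probes were called. In both classes every siRNA sample lay above every null sample. The same test gave 1.86 for Usp18 (adjusted p = 0.0863), 1.30 for Isg15 (adjusted p = 0.104) and -1.30 for Ifi35 (adjusted p = 0.0686), none of which passed. Samples of one class also share their likely array pairs, which can make the p-values too small.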

How the results depend on the processing

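Of 706 comparisons of a member result with its value under an alternative, 612 kept their direction and side of the threshold, 47 lost the call, 8 gained one and 39 turned direction, all 39 between uncalled values. The causes were not tested beyond what fewer samples or tested probes imply.

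For siRNA against wild type 1315 probes were called, and 212 with array pairs, 66 without the replicate number class, 49 with all 14 samples, 401 with equal spread and 1985 with array weights; of the members 4, 3 and 4 were called under the first 3 settings. Leaving out 1 sample gave 225 to 1341 probes and 4 to 6 members (225 without siRNA sample 4, 375 without siRNA sample 3 and 670 without wild-type sample 4). For null against wild type 67 probes were called, and 3 with array pairs, 230 with the replicate block, 877 in replicates 3 and above, 13 after realignment, 114 with quantile normalization, 13 with equal spread (8 higher, 5 lower, against 51 and 16) and 101 with array weights. Limma called 0 without the replicate number class and with all 14 samples, where 1319 and 1571 had an unadjusted p under 0.05. Leaving out 1 sample gave 1 to 147 probes and 0 members. For siRNA against null 1118 probes were called, and 131 with array pairs, 75 without the class, 1824 with the replicate block, 19 with all 14 samples, 1893 in replicates 3 and above, 5529 in replicates 1 and 2 only, 655 after realignment, 710 with equal spread and 2888 with array weights; of the members 5 were called with array pairs, 3 without the class and 1 with all 14 samples. Leaving out 1 sample gave 299 to 1608 probes and 7 to 9 members. The replicate block, which treats same-numbered samples as a block, gave 1622 calls for siRNA against wild type and changed no member call but that of Ifit3. It also takes wild-type sample 6, the only sample of its number, out of the comparison. Equal spread moved the median of all probes from 0.13 to 0.03 for siRNA minus wild type and from -0.09 to -0.23 for siRNA minus null.

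Gja1 in null against wild type was not called with array pairs (-3.11, adjusted p = 0.28), without the class or with all 14 samples (-5.21, adjusted p = 0.618 and 0.567), after realignment (-3.31, 0.0854) or with equal spread (-3.33, 0.0909), and ran from -4.0 to -2.65 without 1 sample. Its siRNA minus null change of 2.90 was not called with array pairs (0.0515), without the class (0.406) or with all 14 samples (0.752), and ran from 2.83 to 2.97. Its siRNA minus wild-type change was -2.31 without the class and with all 14 samples (adjusted p = 0.587 and 0.515), and ran from -1.10 to 0.25 without 1 sample, the last without wild-type sample 4.

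The changes that turned were these. In null minus wild type without the class: Ifit3 0.15, Ifitm3 0.11, Isg20 probe 19472 -0.01 and Usp18 0.55. With all 14 samples: Ifit1 0.52, Ifit2 -0.22, Ifitm3 1.41, Isg20 probe 19472 -0.93 and Usp18 0.89. With the replicate block: Ifit1 0.033, Isg15 0.35 and Usp18 0.39. Array weights gave Isg15 0.023 and Usp18 0.40, realignment Ifitm3 1.49 and Usp18 1.14, and replicates 3 and above Ifi35 0.0028. Isg20 probe 19472 had -0.18 with quantile normalization and -0.14 with equal spread. Leaving out 1 sample turned Ifi35 (-0.60 to 0.099), Ifit1 (-1.72 to 0.033), Ifitm3 (-0.63 to 0.068), Isg15 (-0.62 to 0.35), Isg20 probe 19472 (-0.18 to 0.67) and Usp18 (-0.93 to 0.60). Ifitm3 in siRNA minus wild type was 0.34 without the class, 1.70 with all 14 samples, 1.94 after realignment, and -0.82 to 0.31 without 1 sample. In siRNA minus null it was -0.30 in replicates 1 and 2 only, -0.44 with equal spread and -0.30 to 0.72 without 1 sample. Isg20 probe 30672 in siRNA minus wild type was 0.74 after realignment.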

Other observations

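After realignment, wild-type replicates 1 and 2 gave siRNA minus wild-type differences within replicates 1 and 2 of 3.96 for Rsad2, 3.78 for Isg20 probe 19472, 3.46 for Ifit1, 2.45 for Isg15, 2.27 for Ifit2 and 1.11 for Ifi35. For Usp18 and Ifitm3 the differences were 7.94 and 3.57, far above those of 4.24 and 0.47 in replicates 3 and above. The Usp18 difference rests on wild-type sample 2 alone, since sample 1 had no realigned value for it. Isg20 probe 30672 had 2.19, opposite in sign to its -0.70 in replicates 3 and above. The place of each block column was chosen to match the other samples, so these values are a description and no test.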
